A study of Mus musculus with 6 samples.

Results

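The semaphorins, plexins, neuropilins, ephrins, Eph receptors, SLIT, ROBO, netrin and UNC5 genes encode the secreted and membrane-bound ligands and the receptors of the axon guidance systems. Members were taken by gene symbol alone: every row of the deposited expression table whose name was a class 3 to class 7 semaphorin, a plexin, Nrp1 or Nrp2, an ephrin, an Eph receptor, or a SLIT, ROBO, netrin or UNC5 gene. This gave 65 of the 31097 rows, made up of 32 ligand rows and 33 receptor rows. Messenger RNA was sequenced from 3 libraries of unedited (WT) 3T3-F442A cells and from 3 libraries of SWELL1 KO 3T3-F442A cells, in which CRISPR/Cas9 had been used on SWELL1 (official symbol Lrrc8a), which encodes part of the anion channel that cells open on swelling. Both groups shared the parental mouse line, which is known as a preadipocyte line and is called an adipocyte line in the labels, and both were grown in RPMI with FBS, with no other treatment named. How many clones gave the KO libraries, and whether cells were differentiated, is not in the labels, and the KO sample names carry an unexplained mark, D3, that the WT names lack, so genotype and whatever that mark stands for cannot be told apart. Replicates are called biological, but nothing says that they came from separate cultures, so p-values speak only of the spread among the libraries.

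Axon guidance ligands are read by a growing axon or a migrating cell as attractive or repulsive cues. Secreted class 3 semaphorins bind neuropilins, which pass the signal on through A-type plexins, whereas most membrane-bound semaphorins bind plexins directly, ephrins on one cell engage Eph receptors on its neighbour, SLIT proteins bind ROBO receptors, and netrins bind DCC, neogenin and UNC5 receptors. The same molecules act outside the nervous system in vessel growth, cell adhesion and the shape of connective tissue, and several are made by fibroblasts and fat cells.

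Levels are in FPKM (fragments per kilobase per M mapped fragments), which was inferred because Cufflinks reports it. The WT libraries held an estimated 17.1 to 20.8 M fragments each, the KO libraries 18.4 to 26 M. The clone row AC166252.2, the highest row, held 16.7% to 23.7% of all FPKM in KO libraries and 0% to 2.10% in WT libraries. Rescaling every library to the same sum of all other rows raised the median log2 fold change of all tested rows by 0.11. Lrrc8a shared its row with Nup188 and Phyhd1, so the table could not check the knockout. Fibroblast markers were abundant, with a sum over 10 genes of 7683 to 8547 FPKM in WT and 7909 to 8073 in KO (4 higher and 5 lower of 9 tested). Adipocyte markers were uneven. Fabp4, a fatty acid carrier of fat cells, was at 159 ± 27.9 in WT and 3.44 ± 0.961 in KO, Lpl, a lipase, at 140 to 163 in WT libraries and 104 to 147 in KO libraries, and the others were at 2.49 FPKM or less in every library. Of 10 such genes, Lep was listed at 0 everywhere, Cfd, Cebpa and Cd36 at 0 in KO, 4 of 5 tested were lower in KO, and the sum was 278 to 360 FPKM in WT and 106 to 152 in KO. Adipoq, Plin1 and Pparg reached the mean of 0.5 FPKM set for testing through their WT level. Their calls are thus not separate from that filter. A sum over 4 smooth muscle genes also differed, at 85.2 to 96.5 in WT and 26.4 to 28.8 in KO (1 higher and 1 lower of 2 tested). The part of either list in the differences below was not tested, and in bulk RNA fewer cells of a type and less RNA per cell cannot be told apart. Defining markers of cells best known for guidance genes were at or near 0: 8 neuron genes summed to 0.549 to 0.723 in WT and 0.413 to 1.01 in KO with Snap25, Nefl and Elavl4 at 0, and 6 Schwann cell and glia genes to 0.0544 to 0.142 in WT and 0.287 to 0.845 in KO with Olig2 at 0. The sum of 8 endothelial genes was 0.477 to 0.659 in WT and 2.10 to 2.45 in KO, with Cldn5 and Emcn at 0 and Vwf the tested gene that was higher. Vwf reached the mean set for testing through its KO level.

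Of the 65 members, 12 were listed at 0 in all libraries, 16 were above 0 but under the mean of 0.5 FPKM set for testing, and 37 were tested. Rows were compared on log2(FPKM + 0.5) with limma, two-sided, with Benjamini-Hochberg adjustment over all 10515 tested rows and a threshold of 0.05. A log2 fold change is the KO mean minus the WT mean of those log2 values, and it understates changes of low genes, while folds are ratios of mean FPKM. In KO, 28 of the 37 tested members passed, 13 higher and 15 lower, against 65.2% of all tested rows, 28.5% higher and 36.7% lower. These are 75.7%, 35.1% and 40.5% of the tested members, so the share that passed was near that of the whole table. A log2 fold change of at least 1 was reached by 5 members upward and 10 downward, 13.5% and 27.0% of those tested, beside 7.52% upward and 9.51% downward over all tested rows. The median log2 fold change was -0.11 over the members and -0.07 over all tested rows, and the median size without sign was 0.54 and 0.44. Sema3e and Sema3g reached the mean of 0.5 FPKM through their WT level, so their passing is not separate from their difference.

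Of the tested members, 16 of 24 ligands and 12 of 13 receptors passed, while large differences were more frequent among the ligands. Over all tested rows 65.2% passed, and 7.52% reached a log2 fold change of 1 upward and 9.51% downward. Of 24 tested ligands, 6 were higher, 10 were lower and 8 did not pass, and 12 reached a log2 fold change of 1. Of 13 tested receptors, 7 were higher, 5 were lower and 1 did not pass, and 3 reached a log2 fold change of 1. Abundance in WT did not sort them. The most abundant receptors, Plxnb2, Ephb4 and Plxna1, fell by 1.33-fold or less, but the next, Nrp2, rose 2.27-fold. The most abundant ligand, Slit3, fell 3.03-fold, but the next, Efna1, did not pass (limma adjusted p = 0.167). Whether ligands and receptors differ was not tested.

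**Figure D1:**
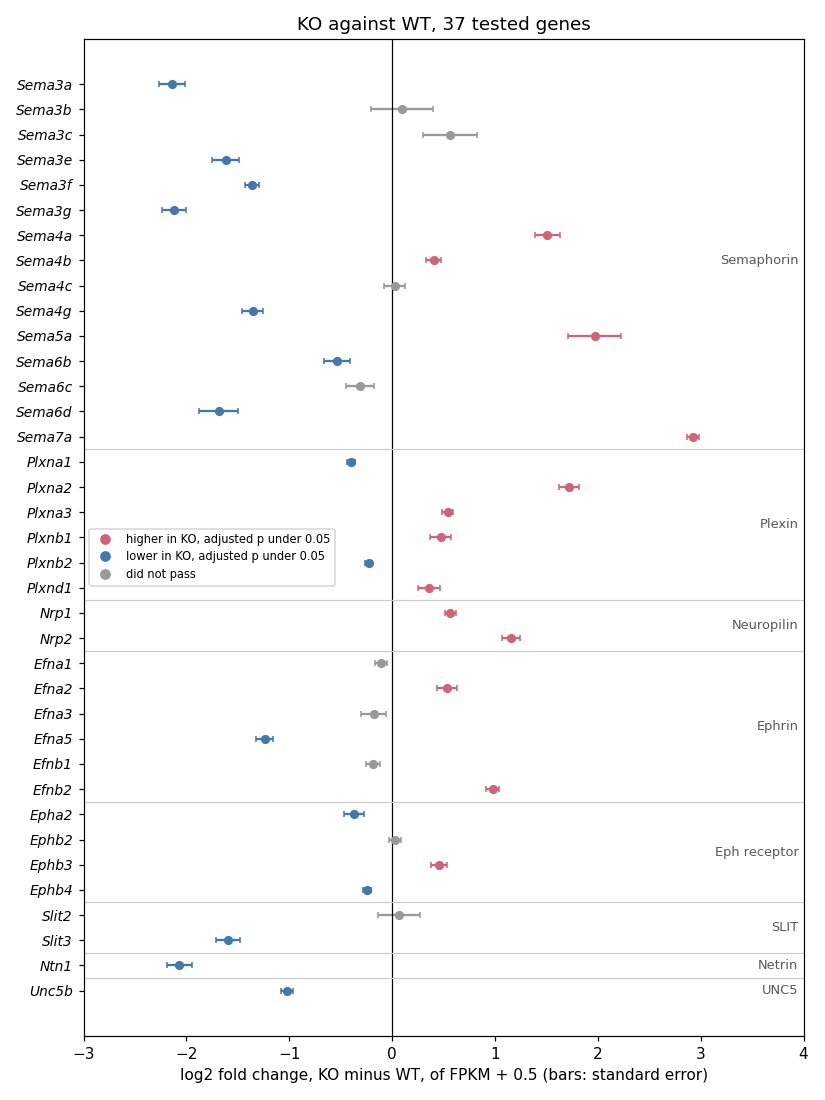
Log2 fold change (KO minus WT, on log2(FPKM + 0.5)) of the 37 tested members grouped by family, with bars for the standard error. The extremes are Sema7a at 2.93 and Sema3a at -2.14, and both plexins and semaphorins hold members on either side of 0. The position of Sema3e, listed at 0 in KO, depends on the added 0.5.

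Promoter sequences are shown for 4 members with a single promoter in the RefSeq table, to give what lies before genes that rose (Sema7a, Nrp2) and genes that fell (Sema3g, Efna5), a choice made after their values were seen. Each is the 250 bases before the start in RefSeq on GRCm38.p6, 5′ to 3′ on the gene's strand, at chr9:57939862-57940111 (+) for Sema7a, chr1:62703067-62703316 (+) for Nrp2, chr14:31217623-31217872 (+) for Sema3g and chr17:62881318-62881567 (-) for Efna5. Capitals mark the GC box letters GGGCGG on either strand, and in Nrp2 a pair of matches overlaps.
Sema7a: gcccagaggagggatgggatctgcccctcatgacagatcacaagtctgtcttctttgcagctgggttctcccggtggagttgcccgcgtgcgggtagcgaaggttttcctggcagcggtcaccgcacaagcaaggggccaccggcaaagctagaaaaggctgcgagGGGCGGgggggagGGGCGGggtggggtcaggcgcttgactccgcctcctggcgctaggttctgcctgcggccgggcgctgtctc
Nrp2: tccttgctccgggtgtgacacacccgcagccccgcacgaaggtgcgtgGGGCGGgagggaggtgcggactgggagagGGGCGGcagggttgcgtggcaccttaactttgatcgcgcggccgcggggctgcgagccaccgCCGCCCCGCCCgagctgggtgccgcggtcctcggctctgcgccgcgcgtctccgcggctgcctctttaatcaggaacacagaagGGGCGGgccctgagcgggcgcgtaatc
Sema3g: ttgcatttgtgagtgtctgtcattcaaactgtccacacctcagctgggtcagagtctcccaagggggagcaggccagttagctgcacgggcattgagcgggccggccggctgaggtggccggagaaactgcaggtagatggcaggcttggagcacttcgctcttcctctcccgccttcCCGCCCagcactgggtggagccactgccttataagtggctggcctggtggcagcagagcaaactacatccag
Efna5: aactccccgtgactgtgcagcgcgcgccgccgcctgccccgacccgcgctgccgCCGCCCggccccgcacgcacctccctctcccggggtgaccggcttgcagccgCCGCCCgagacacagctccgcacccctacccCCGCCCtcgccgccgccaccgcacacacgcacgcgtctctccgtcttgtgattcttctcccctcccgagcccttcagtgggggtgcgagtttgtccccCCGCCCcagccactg
Nrp2 held 5 matches, Efna5 4, Sema7a 2 and Sema3g 1. Promoter windows were kept for 57 of the 65 members, 73 windows in all since 12 members had more than 1, and each kept window was searched. The remaining members, Sema6a among them, were left out of these counts. Their absence does not mean that they lack a promoter in the RefSeq table. A GC box stood in 16 of 17 windows of members that were higher, 13 of 15 of those that were lower, 9 of 12 of those that did not pass and 14 of 29 of those not tested, against 42.6% of 21263 windows of protein-coding genes. The median GC content of these windows was 65.6%, 63.6%, 64.6% and 62.8%, against 55.6%, so members that did not pass and members not tested were also richer in GC than the background. In windows of members higher and lower, the E-box CACGTG was in 1 of 17 and 1 of 15 (6.63% of all), the HIF core ACGTG, which lies within that E-box, in 3 and 3 (17.8%), the TEAD letters GGAATG in 4 and 1 (11.7%), the AP-1 letters TGANTCA in 0 and 1 (6.13%) and the TATA box TATAAA in 1 and 0 (11.6%). These matches describe letters in these windows only.

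Secreted class 3 semaphorins, most of which bind neuropilins, were mostly lower in KO. Of 7 rows, 6 were tested, 4 were lower, none were higher, and their summed level was 34.1 ± 1.78 FPKM in WT and 16.8 ± 0.447 in KO (SD, n = 3 libraries per group, as for all means below), without overlap under each of 4 scalings. Sema3a (chr5:13125414-13602565, + strand, coordinates on GRCm38 here and below), the classic growth cone-collapsing semaphorin, had 7.46, 5.87 and 6.06 FPKM in WT replicates 1, 2 and 3 and 0.924, 1.05 and 1.26 in the KO replicates. Its mean fell 6-fold, from 6.46 ± 0.866 to 1.08 ± 0.167 (log2 fold change -2.14 ± 0.12 SE, adjusted p = 3.86e-05), and the lowest WT library stood far above the highest KO library. Sema3f (chr9:107681500-107710475, - strand), a ligand that prefers Nrp2, was the most abundant semaphorin in WT at 16.3, 16.1 and 18.1 FPKM and stood at 5.89, 6.46 and 6.31 in KO. The groups were tight and apart, with a 2.70-fold fall (log2 fold change -1.36 ± 0.07, adjusted p = 2.1e-05). Sema3g (chr14:31217860-31230352, + strand), a class 3 semaphorin known from vessel walls, had 2.59, 1.99 and 2.30 FPKM in WT and 0.148, 0.143 and 0.130 in KO. Its fall of 16.3-fold rests on KO levels worth only 10.9 to 16.8 estimated fragments per library (log2 fold change -2.12 ± 0.12, adjusted p = 3.42e-05). Sema3e (chr5:14025276-14256689, + strand), which binds Plxnd1 without a neuropilin, had 0.973, 0.968 and 1.17 FPKM in WT and was listed at 0 in each KO library (adjusted p = 0.000128), so no fold is given. It is the downstream neighbour of Sema3a on chromosome 5, and both fell.

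The class 3 ligands that did not pass had 1 WT library apart from its group. Sema3c, a semaphorin that acts through both neuropilins, had 3.33, 6.16 and 2.76 FPKM in WT and 6.10, 5.98 and 5.75 in KO (log2 fold change 0.56, adjusted p = 0.109), and without WT replicate 2 the value was 0.87 with adjusted p = 0.00127. Sema3c passed in no other of the 15 alternative fits, in which its value ran down to 0.35 and its adjusted p up to 0.267. Sema3b had 5.48, 2.36 and 2.30 in WT and 3.21, 3.49 and 3.47 in KO (0.10, adjusted p = 0.796), and 0.46 with adjusted p = 0.00583 without WT replicate 1. Over the fits that leave out 1 library, the Sema3b value ran from -0.09 to 0.46. With all 6 libraries the groups overlapped for both. Sema3b and Sema3f are close on chromosome 9 and on the same strand, but the fall of Sema3f was not shared by Sema3b. As a share of the class 3 sum, Sema3f made up 49.5% ± 5.34 in WT and 37.1% ± 0.782 in KO, while Sema3c made up 12.0% ± 5.55 and 35.5% ± 1.81.

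The GPI-anchored Sema7a and the transmembrane Sema5a and Sema4a were higher in KO. Sema7a (chr9:57940112-57962865, + strand), which signals through integrins and Plxnc1, had 3.41, 3.45 and 3.28 FPKM in WT and 29.3, 30.8 and 27.2 in KO. The libraries of each group lay close together and the groups far apart, an 8.60-fold rise from 3.38 ± 0.0889 to 29.1 ± 1.81 (log2 fold change 2.93 ± 0.06, adjusted p = 1.75e-06). Plxnc1, its plexin, was listed at 0 in all libraries, whereas Itgb1, the beta chain of its integrin receptor, was at 215 ± 9.23 in WT and 217 ± 4.88 in KO (adjusted p = 0.758). Sema5a (chr15:32244810-32696341, + strand), which carries thrombospondin repeats and can attract or repel axons, had 7.57, 3.74 and 3.93 FPKM in WT and 19.8, 19.3 and 22.1 in KO. WT replicate 1 stood above the other WT libraries but well under the KO libraries (4.02-fold, log2 fold change 1.97 ± 0.26, adjusted p = 0.000939). Sema4a (chr3:88435959-88461182, - strand), first known from immune cells, rose from a low level, with 0.675, 0.591 and 0.683 in WT and 2.36, 2.77 and 3.23 in KO (4.29-fold, 1.51 ± 0.12, adjusted p = 0.000134). The sum of 5 macrophage genes was 1.30 to 1.64 in WT and 0.127 to 0.343 in KO. Lyz2 made up nearly all of the WT sum and was the tested one (lower), which it reached through its WT level. Csf1r was at 0, and the other 3 reached at most 0.0204. The part of these genes in the Sema4a value was not tested. Sema4b, a transmembrane semaphorin of the same class, rose by less, from 2.73 ± 0.182 to 3.76 ± 0.195 (1.38-fold, adjusted p = 0.0041).

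Other transmembrane semaphorins were lower in KO. Sema4g (chr19:44989101-45003397, + strand), a less studied class 4 semaphorin, had 3.86, 3.20 and 3.37 FPKM in WT and 0.943, 1.08 and 1.14 in KO (3.31-fold lower, log2 fold change -1.36 ± 0.10, adjusted p = 8.88e-05). Sema6d (chr2:124089969-124667770, + strand), a ligand of A-type plexins, had 4.73, 4.12 and 2.78 in WT and 0.977, 0.762 and 0.772 in KO (4.63-fold lower, -1.69 ± 0.19, adjusted p = 0.000514). Sema6b (chr17:56123085-56140343, - strand), also a ligand of A-type plexins, had 1.53, 1.61 and 1.18 in WT and 0.904, 0.837 and 0.760 in KO (1.73-fold lower, -0.53 ± 0.13, adjusted p = 0.0108). For each of these the groups did not overlap. Sema6c had 2.51, 2.09 and 3.16 in WT and 2.07, 1.91 and 1.90 in KO and did not pass (adjusted p = 0.0934). Its adjusted p was 0.028 without WT replicate 2 and up to 0.236 in the other alternative fits. Sema4c, a ligand of Plxnb2, was the most abundant class 4 semaphorin and had 13.8, 10.7 and 11.1 in WT and 11.9, 12.4 and 11.7 in KO, overlapping groups with adjusted p = 0.853. Sema3d, Sema4d, Sema4f and Sema6a were above 0 in at least 1 library and too low to be tested, and Sema5b was listed at 0.

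These changes altered the mix of semaphorins more than their sum. The summed level was 77.0, 65.9 and 65.0 FPKM in WT and 88.4, 90.7 and 89.8 in KO, higher in KO without overlap under each of 4 scalings. Sema7a made up 4.91% ± 0.430 of that sum in WT and 32.4% ± 1.92 in KO. Sema5a went from 7.18% ± 2.29 to 22.8% ± 1.69, and Sema3f from 24.5% ± 3.40 to 6.94% ± 0.243. Class 6 fell in sum from 7.99 ± 0.780 to 3.64 ± 0.279, and the class 4 sums overlapped. Sema3f thus led the WT libraries and Sema7a the KO libraries.

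**Figure D2:**
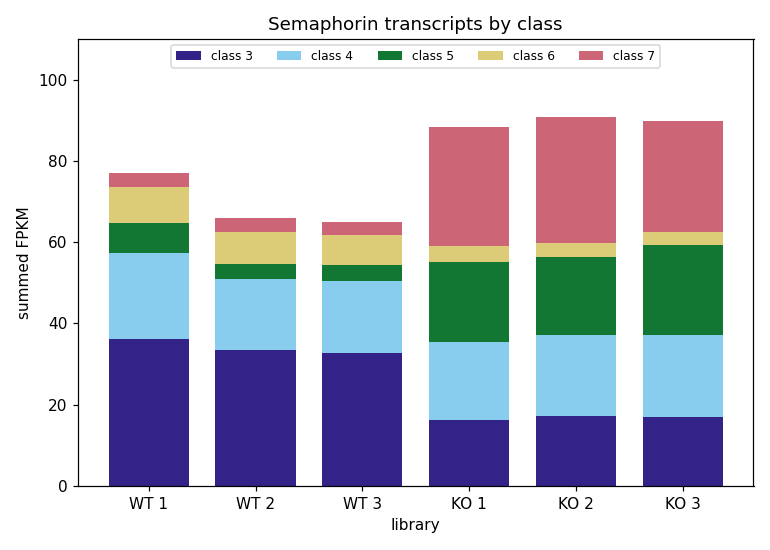
Stacked bars of the summed FPKM of each semaphorin class (3 to 7) in each WT and KO library. Class 3 is at 34.1 on average in WT and 16.8 in KO, while class 7, which is Sema7a alone, is at 3.38 and 29.1.

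Neuropilins, the co-receptors that bind class 3 semaphorins and VEGF, were higher in KO. Nrp2 (chr1:62703285-62818695, + strand) had 25.2, 24.4 and 24.6 FPKM in WT and 49.2, 56.8 and 62.1 in KO. The KO libraries were more spread than the WT libraries but all stood clear of them (2.27-fold, log2 fold change 1.16 ± 0.09, adjusted p = 9.52e-05). Nrp1 (chr8:128358604-128503363, + strand, a row that also names the small RNA Mir1903) had 9.70, 8.89 and 8.86 in WT and 13.6, 13.8 and 13.9 in KO (1.51-fold, 0.57 ± 0.05, adjusted p = 0.0002). The summed level went from 33.9 ± 0.887 to 69.8 ± 6.64, so it was higher where the sum of the class 3 ligands was lower. Nrp2 made up 73.0% ± 0.701 of the sum in WT and 80.2% ± 1.65 in KO.

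Plexins, the signalling receptors for semaphorins, changed in both directions, 4 higher and 2 lower of 6 tested. Plxna2 (chr1:194618218-194816869, + strand), a neuropilin partner and receptor for class 6 semaphorins, had 1.20, 1.32 and 1.61 FPKM in WT and 5.90, 5.48 and 5.57 in KO. Its groups were far apart (4.11-fold, log2 fold change 1.72 ± 0.10, adjusted p = 3.51e-05). Plxna3 rose from 5.85 ± 0.341 to 8.73 ± 0.0987 (1.49-fold, adjusted p = 0.000353), while Plxna1, the most abundant A-type plexin, fell from 31.2 ± 1.04 to 23.5 ± 0.243 (1.33-fold, adjusted p = 0.000294). The A-type sum stayed at 38.4 ± 1.28 and 37.9 ± 0.532, overlapping as deposited but higher in KO under quantile normalization and when rescaled without the highest row. Within it Plxna1 made up 81.2% ± 0.467 in WT and 62.0% ± 0.245 in KO.

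Plxnb2 (chr15:89155549-89180788, - strand), the class 4 semaphorin receptor and the most abundant plexin, had 73.4, 73.1 and 74.7 FPKM in WT and 63.6, 61.5 and 63.4 in KO. The groups did not overlap and the fall was 1.17-fold (log2 fold change -0.23 ± 0.03, adjusted p = 0.00125), but the call was lost under quantile normalization (adjusted p = 0.979) and when rescaled without the highest row (adjusted p = 0.1). Plxnb1 (chr9:109095389-109119917, + strand), the Sema4d receptor, had 0.534, 0.524 and 0.454 in WT and 0.934, 0.858 and 0.878 in KO (1.77-fold, 0.47 ± 0.11, adjusted p = 0.00954). It rose without overlap from a level just around the mean set for testing. Plxnd1, the Sema3e receptor, had 11.4, 10.5 and 13.3 in WT and 15.6, 16.3 and 13.7 in KO (1.29-fold, 0.36 ± 0.11, adjusted p = 0.0272). Its call was lost without WT replicate 1 (adjusted p = 0.0765), WT replicate 2 (0.0737), KO replicate 1 (0.0755) or KO replicate 2 (0.0837), and with a replicate block (0.0815). Plxna4 and Plxnb3 were too low to be tested. The plexin sum was lower in KO as deposited, overlapped under 2 other scalings and was higher in KO under quantile normalization, so it gives no direction.

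**Figure D3:**
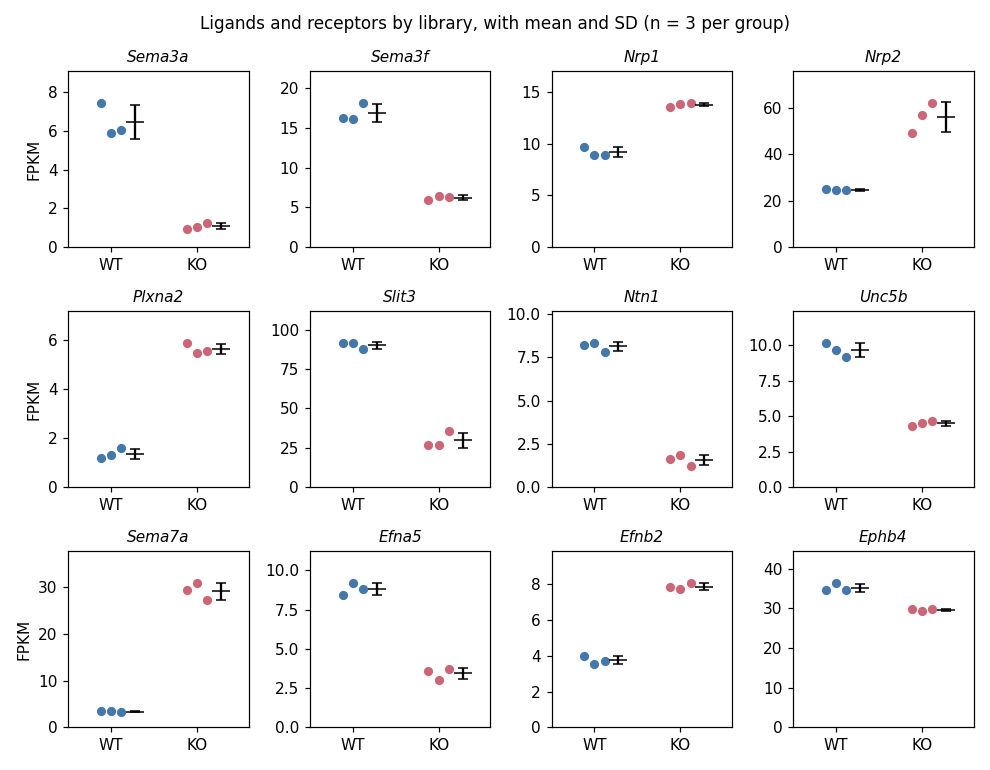
FPKM (linear axes from 0) in each library (points) for 12 ligands and receptors in WT and KO, with the mean and SD beside them. Sema3a and Sema3f are lower in KO while Nrp1, Nrp2 and Plxna2 are higher, and Slit3 has means of 90.2 in WT and 29.7 in KO.

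Ephrins, the membrane-bound ligands of Eph receptors, gave 2 higher, 1 lower and 3 not passing of 6 tested. Efna5 (chr17:62604184-62881317, - strand), a GPI-anchored repulsive cue, had 8.42, 9.19 and 8.82 FPKM in WT and 3.61, 3.05 and 3.69 in KO (2.55-fold lower, log2 fold change -1.24 ± 0.08, adjusted p = 6.09e-05). Efnb2 (chr8:8617434-8661242, - strand), a transmembrane ephrin known from arterial vessels, had 4.01, 3.57 and 3.69 in WT and 7.82, 7.71 and 8.06 in KO (2.09-fold, 0.98 ± 0.06, adjusted p = 4.58e-05). These ephrins moved in opposite directions, each with groups well apart. Efna2 (chr10:80179482-80190010, + strand), a further GPI-anchored ephrin, had 1.38, 1.17 and 1.30 in WT and 2.25, 2.10 and 1.88 in KO (1.62-fold, 0.53 ± 0.10, adjusted p = 0.00407). Efna1 (chr3:89271733-89281142, - strand), the most abundant ephrin, had 29.7, 27.4 and 28.6 in WT and 24.7, 26.5 and 28.2 in KO, overlapping groups that did not pass (-0.11 ± 0.06, adjusted p = 0.167). Its small difference turned to 0.03 under quantile normalization and 0.01 when rescaled without the highest row. Efnb1 did not pass (adjusted p = 0.059), nor did Efna3 (adjusted p = 0.248), and Efna4 was listed at 0. For Efnb1 the adjusted p was 0.0449 without KO replicate 3 and up to 0.369 in the other alternative fits.

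Eph receptors were mostly low or at 0, with 4 of 14 tested. Ephb4 (chr5:137350109-137378669, + strand, a span that overlaps Zan), the main Efnb2 receptor, was the most abundant, with 34.6, 36.3 and 34.6 FPKM in WT and 29.7, 29.3 and 29.7 in KO (1.19-fold lower, log2 fold change -0.25 ± 0.04, adjusted p = 0.00165). The groups were apart, though the call was lost under quantile normalization (adjusted p = 0.0669) and when rescaled without the highest row (adjusted p = 0.0578). Ephb3, a receptor for B-type ephrins, rose from 5.05 ± 0.470 to 7.09 ± 0.151 (1.40-fold, adjusted p = 0.00236). Epha2, which binds A-type ephrins and is known from epithelia, fell from 5.80 ± 0.390 to 4.37 ± 0.544 (1.33-fold, adjusted p = 0.0169), a call lost without WT replicate 2 (adjusted p = 0.0536) or KO replicate 2 (0.0548) and when rescaled without the highest row (0.0587). Of 6 epithelial genes, which summed to 0.0632 to 0.182 in WT and 1.25 to 1.53 in KO, Krt8 carried the KO sum (1.49, 1.17 and 1.30 in KO, with every WT library at 0), Epcam was at 0, and the others stayed at or under 0.157, and their part in the Epha2 value was not tested. Ephb2 overlapped between groups (adjusted p = 0.712). Epha4, the receptor that binds both ephrin types, was too low to be tested at 0.278, 0.283 and 0.281 in WT and 0.0644, 0.0654 and 0.0840 in KO. Epha5, Epha7, Epha8 and Ephb6 were likewise too low, and Epha1, Epha3, Epha6, Epha10 and Ephb1 were listed at 0.

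Slit3 and Ntn1, secreted ligands of the SLIT and netrin systems, were both lower in KO. Slit3 (chr11:35121224-35708507, + strand) was the most abundant member of all in WT, with 91.5, 91.5 and 87.6 FPKM, and had 27.0, 26.7 and 35.5 in KO. KO replicate 3 stood above the other KO libraries and far under every WT library (3.03-fold lower, log2 fold change -1.60 ± 0.11, adjusted p = 8.17e-05). Slit2, the best known ROBO ligand, had 7.70, 13.1 and 12.0 in WT and 10.1, 12.2 and 11.4 in KO and did not pass (0.07 ± 0.20, adjusted p = 0.783), so the share of Slit3 in the SLIT sum was 89.2% ± 2.65 in WT and 72.3% ± 3.57 in KO. Slit1 was too low to be tested. The ROBO receptors, which SLIT proteins bind, were at or near 0: Robo2 and Robo4 were listed at 0, Robo1 reached at most 0.0149 FPKM and Robo3 at most 0.0742.

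Ntn1 (chr11:68209364-68400823, - strand), the founding netrin, had 8.24, 8.33 and 7.82 FPKM in WT and 1.61, 1.86 and 1.25 in KO. Its libraries were tight within each group and well apart between them (5.17-fold lower, log2 fold change -2.07 ± 0.12, adjusted p = 3.78e-05). Unc5b (chr10:60762593-60831581, - strand), its repulsive receptor and the most abundant UNC5 gene, had 10.2, 9.68 and 9.18 in WT and 4.32, 4.50 and 4.66 in KO (2.15-fold lower, -1.03 ± 0.06, adjusted p = 3.58e-05). Ligand and receptor thus fell together, and in neither did the groups overlap. Ntn4, a laminin-binding netrin, had 0.265, 0.117 and 0.335 in WT, was listed at 0 in KO, and was too low to be tested. Unc5c was too low as well, and Unc5a and Unc5d were listed at 0.

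**Figure D4:**
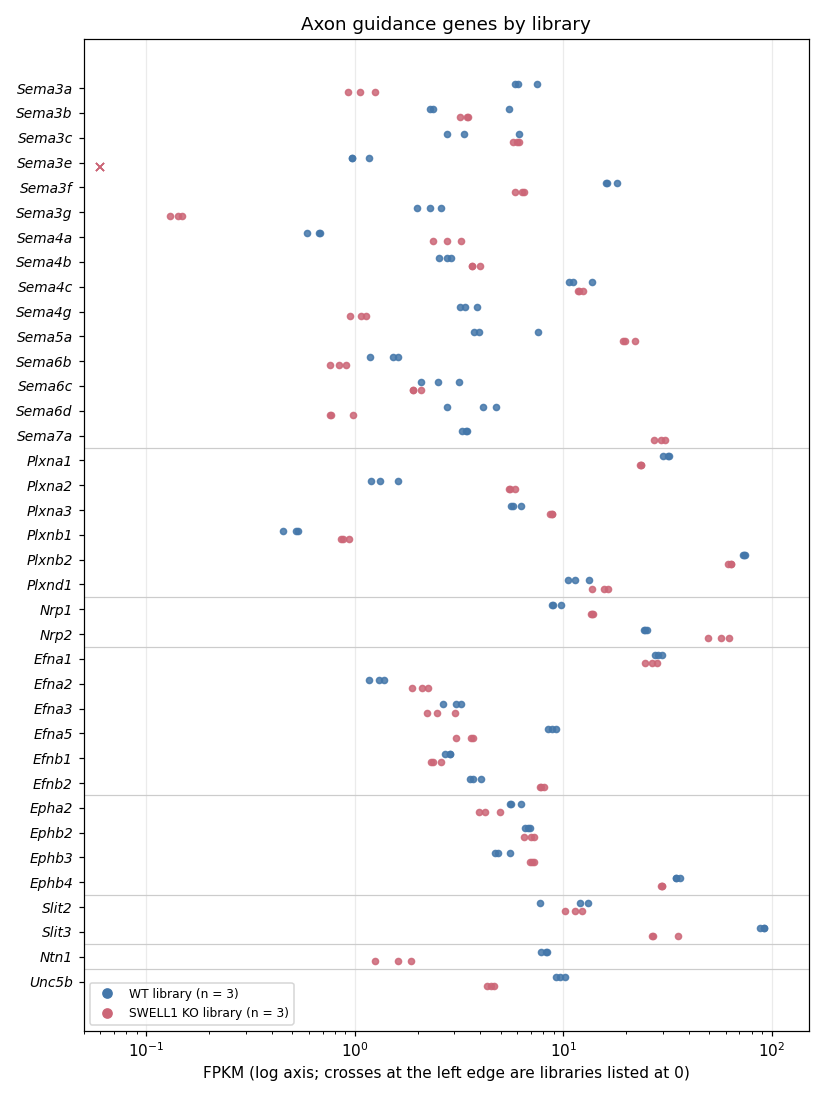
FPKM (log axis) in each of the 6 libraries for the 37 tested members, WT and KO points on neighbouring lines, with crosses for Sema3e, listed at 0 in KO. Sema7a separates upward most, from 3.38 to 29.1 on average, and Ntn1, at 8.13 and 1.57, is among those that separate downward.

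Genes around the guidance systems were read from lists of co-receptors and signal mediators, 85 rows of which 58 were tested, 26 higher and 17 lower. Their shares, 44.8% higher and 29.3% lower, stand beside 28.5% and 36.7% over all tested rows. The split over all rows depends on scaling, from 2998 higher and 3862 lower to 3561 and 3119 when rescaled without the highest row. The lists were not counted under that scaling. Draxin, Pgf and Ngef reached the mean set for testing through their KO level and Srgap1 through its WT level, so their calls are not separate from that filter. Among other netrin, RGM and DCC family genes 4 of 4 tested, Draxin included, were higher. Rgmb, a repulsive guidance molecule and BMP co-receptor, had 17.3, 15.5 and 16.3 FPKM in WT and 43.6, 44.3 and 42.2 in KO (2.65-fold, log2 fold change 1.38, adjusted p = 9.31e-06). Neo1 (neogenin), the receptor for both netrins and RGMs, rose from 10.5 ± 0.903 to 15.0 ± 0.462 (adjusted p = 0.00121), Draxin, a netrin antagonist, from 0.382 ± 0.0236 to 0.958 ± 0.0344 (adjusted p = 0.0015), and Dcc was listed at 0. Neogenin was therefore higher and Unc5b lower among receptors that read netrins. Of 4 tested FLRT ligands and latrophilins, Flrt2, an UNC5 ligand, rose from 3.61 ± 0.324 to 5.80 ± 0.345 (adjusted p = 0.000997), Lphn2, an adhesion receptor that binds FLRT proteins, fell from 4.10 ± 0.306 to 2.41 ± 0.206 (adjusted p = 0.000985), and the other 2 did not pass. None of the 7 L1 and contactin rows (Nrcam, Chl1, Nfasc and Cntn1 to Cntn4) reached the mean set for testing. L1cam is not among these rows, so its level is not given here.

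Partner receptors of plexins and neuropilins and the VEGF ligands gave 5 higher and 1 lower of 9 tested. Vegfa, the growth factor that neuropilins also bind, fell from 95.4 ± 3.78 to 43.5 ± 3.15 FPKM (2.19-fold, adjusted p = 3.46e-05), while Pgf, a related ligand, rose from 0.236 ± 0.0708 to 1.80 ± 0.160 (adjusted p = 0.000102). Met, a plexin partner and the HGF receptor, rose from 104 ± 3.82 to 179 ± 9.31 (1.73-fold, adjusted p = 5.76e-05). Vegfc, a VEGF that prefers lymphatic vessels, rose from 6.29 ± 0.261 to 10.6 ± 0.712 (adjusted p = 0.000223). Neuropilin ligands thus moved both ways, with Sema3a, Sema3f, Sema3g and Vegfa lower, Pgf and Vegfc higher and Sema3b and Sema3c not passing. The calls of Sema3g and Pgf are not separate from the filter on the mean.

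Mediators changed in both directions. Of 16 tested semaphorin and plexin mediators, 5 were higher and 8 lower. Rnd1, a small GTPase that binds plexins, fell from 16.3 ± 0.838 to 1.65 ± 0.339 (9.89-fold, log2 fold change -2.98, adjusted p = 1.38e-05), whereas Dpysl3 rose from 15.3 ± 0.300 to 53.5 ± 3.40 (3.50-fold, adjusted p = 5.71e-06) and Crmp1 from 2.61 ± 0.172 to 7.35 ± 0.204 (2.82-fold, adjusted p = 2e-05). The last pair belong to the CRMP family, which relays Sema3a signals to microtubules, and of which Dpysl2 fell from 7.65 ± 0.677 to 5.36 ± 0.630 (adjusted p = 0.00864) and Dpysl4 and Dpysl5 were listed at 0. Of 10 tested Eph mediators, 4 were higher and 2 lower. Ngef (ephexin), an exchange factor downstream of EphA receptors, had 0.0214, 0.0530 and 0.0664 in WT and 3.36, 6.24 and 9.42 in KO (log2 fold change 3.54, adjusted p = 0.000255), a rise that was uneven across the KO libraries. Vav3, a further exchange factor, fell 2.49-fold (adjusted p = 7.06e-05) and Inppl1, a phosphatase that binds Epha2, 1.71-fold (adjusted p = 5.71e-05). Of 15 tested SLIT, ROBO, netrin and UNC5 mediators, 7 were higher and 5 lower. Trio, an exchange factor used by netrin signalling, rose from 7.36 ± 0.636 to 21.5 ± 4.02 (2.92-fold, adjusted p = 0.000319). Srgap1, a GTPase-activating protein that binds ROBO receptors, fell from 1.18 ± 0.0327 to 0.119 ± 0.0356 (9.92-fold, adjusted p = 0.000134), and Evl, an actin-tip protein, from 38.8 ± 4.97 to 14.7 ± 2.73 (2.64-fold, adjusted p = 0.000629).

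**Figure D5:**
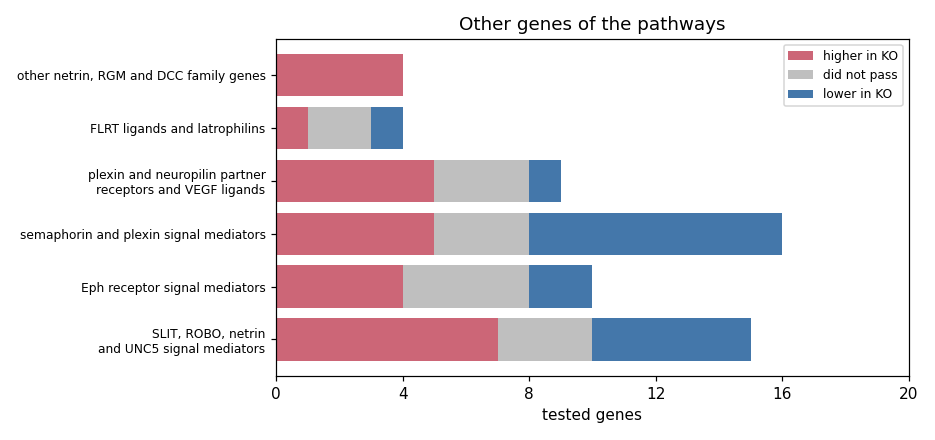
Stacked bars of the number of tested genes higher, lower and not passing in KO for each list of co-receptors and mediators. All 4 tested genes of the netrin, RGM and DCC list are higher, and 8 of 16 tested semaphorin and plexin mediators are lower.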

How the data were processed

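RNA was extracted with TRIZOL, per the labels' protocols, and the authors deposited 1 expression table for all 6 libraries, whose values are FPKM by inference, since no label or header names the unit. Cufflinks 2.02 and GRCm38 were used, per the submitters' processing notes; their settings and annotation release were not given in the sources used here. An exact 0 may be a failed estimate, so such genes are said to be listed at 0. Depth was estimated from the smallest values of 1237 single-transcript genes of at least 2500 bases. Strand was not stated, so overlapping genes are not told apart.

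Rows averaging 0.5 FPKM or more were tested on log2(FPKM + 0.5) with limma 3.58.1 (R 4.3.3, mean-variance trend). Steps were tested on simulated data. Values were read with pandas 2.3.3 and numpy 2.4.6 in Python 3.11.15 and drawn with matplotlib 3.10.9. Values in every library are given for members past the threshold with groups apart and means at least 1.5-fold apart, for those at 0 in 1 group and at 1 FPKM or more in the other, and for the most abundant of each family; other members shown by library were chosen after their values were seen. Up to 3 genes per list were named by size of log2 fold change; Itgb1, Dcc, Vegfc and the Dpysl genes other than Dpysl3 are outside that rule. The members and lists were chosen with earlier results of these data known. Alternatives were other pseudocounts, filters, scalings, robust variance, a replicate block and leaving out each library. A further gene list is not reported here.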

Additional observations from a re-analysis of the deposited data

How the results depend on the processing

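Under 15 alternatives, 24 of the 28 called members kept their direction and call in each alternative that tested them, and none of the 28 reversed; the others (Plxnb2, Plxnd1, Epha2, Ephb4) are given with their values in the report. Calls among members were 28 (13 higher, 15 lower) as reported, 33 with no filter (53 tested), 26 with a mean of at least 1 FPKM, 26 under quantile normalization and 25 (13 and 12) when rescaled without the highest row, which split all 6680 calls into 3561 higher and 3119 lower, against 2998 and 3862 of 6860. Leaving out 1 library gave 26 to 29 calls, 12 to 13 higher and 14 to 16 lower, and over all rows 6303 to 6512, 2716 to 2870 higher and 3553 to 3706 lower. The replicate block gave 27 members (12 higher, 15 lower) and 6534 rows. Same-numbered libraries had correlations of their deviations of 0.003, 0.012 and -0.093, so the numbers were not taken to pair the samples. Values that changed sign were all of members that did not pass: Efna1 (0.0256 under quantile normalization, 0.0103 rescaled without the highest row) and, over the fits that leave out 1 library, Slit2 (-0.156 to 0.21), Sema3b (-0.0909 to 0.456), Sema4c (-0.045 to 0.131) and Ephb2 (-0.00622 to 0.0708). The cause was not tested. Members under 0.5 FPKM rest on few fragments and were not tested.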
